A study of Homo sapiens with 9 samples.

Results

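Untreated cranial neural crest cells (CNCCs) were profiled by SLAM-seq, and the RNA made during labelling was compared with the older RNA of the same genes. The 3 libraries labelled 0h were used, and every gene with at least 50 total reads in each of them was taken, which left 10283 of the 18970 gene symbols in the tables. The cells were differentiated from the established line H9, a line of human embryonic stem cells, and both copies of their SOX9 gene carry FKBP12-F36V, mNeonGreen and V5 at the end of the coding sequence. The libraries, S9CC13_R6, S9CC47_R5 and S9CC47_R6, are named for 2 clones and 2 differentiation batches, so clone S9CC13 and batch R5 are each represented by 1 culture. The labels give the 0h samples a relative SOX9 level of 100% and list dTAGV-1, the degrader of tagged SOX9, at 500 nM with a time of 0 h. In the study's protocol undepleted cells received vehicle. All cells were kept in medium with bFGF, EGF, BMP2 and the GSK3 inhibitor CHIR-99021. They were given 4-thiouridine (4sU) at 100 uM for 2 h. The other groups of the series, at 3h and 24h of depletion, were not used.

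In SLAM-seq, cells build 4sU into the RNA that they make during labelling, and alkylation then makes the base read as C in place of T. A read with such a T>C change is taken as new RNA, although base differences from hg38 or between gene copies can also give such reads. A read without such a change comes from older RNA or from new RNA that took up no label in the sequenced stretch. In cells whose RNA levels are steady, an RNA that is destroyed quickly is replaced quickly, so that much of it is new at any moment. Whether levels were steady in these cultures was not tested. Messenger RNAs of immediate-early genes and of many regulators are known for rapid decay, which often runs through AU-rich or Pumilio elements of the 3′ UTR, and those of ribosomal proteins and metabolic enzymes are known for long lives. CNCCs give rise to the bone, cartilage and connective tissue of the face, and SOX9 is a transcription factor of the crest and of cartilage.

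Total reads were 21356401, 16955633 and 28782678 in S9CC13_R6, S9CC47_R5 and S9CC47_R6, and T>C reads were 3957989, 3411782 and 5409139. T>C reads therefore made up 18.5%, 20.1% and 18.8% of all reads. The genes taken held between 99.65% and 99.67% of the reads of each library. No library without 4sU was analysed here, so the T>C share of unlabelled RNA was not measured. Very low shares came from the MTRNR2L genes, near-copies of the mitochondrial 16S ribosomal RNA in the nuclear genome, which together had a share of 1.38%, 1.62% and 1.42% in the 3 libraries.

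The labelled cell type was checked against marker genes. Of 56 transcription factors of the cranial neural crest, 41 had a mean level of at least 1 CPM, the reads of a gene scaled to a common library total, and 14 had at least 100. NR2F1, SOX4, SOX9, SOX11, MSX1 and TFAP2B were the highest of them, with means of 1064, 1057, 764, 627, 625 and 578 CPM. The libraries count 3′ ends, so each transcript gives reads from 1 place whatever its length, and CPM was compared between genes on that basis. No read came from the crest factors FOXD3, HAND1, HAND2, FOXF1 and FOXF2, and SOX10, a marker of early crest and glia, had 0.0549 CPM. None of 39 HOX genes, which mark the trunk and the hindbrain arches, reached 1 CPM, and 26 of them had no read. A count of 3 reads, taken as the limit that a count of 0 allows, equals between 0.104 and 0.177 CPM in these libraries.

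Markers of other cell types were low or absent in most lists. None of 12 endothelial and blood genes reached 1 CPM, and the summed level of the list lay between 0.708 and 1.08 CPM. KRT18 and KRT8 at 1.84 and 1.15 CPM were the 2 of 12 epithelial genes above 1 CPM. TUBB3, a neuronal tubulin also made elsewhere, had 76.5 CPM, and DCX, a marker of young neurons in the same list, had 17.2, 11.7 and 15.0 CPM. PAX6 and SOX1, which mark neural progenitors, were at or near 0. The part of neuron RNA in the results was not tested. The pluripotency regulators POU5F1 and TDGF1 had no read and NANOG had 0.0584 CPM. L1TD1, LIN28A, LIN28B and SALL4, listed with them, had 480, 337, 213 and 178 CPM.

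The T>C share of a gene, as used here, is the percent of its reads that have a T>C change. Over the 10283 genes the mean share of the 3 libraries had a median of 26.9%, a 10th percentile of 10.6% and a 90th percentile of 52.9%. The share was under 5% in 124 genes and at least 50% in 1303. Across genes, the shares of any 2 libraries had a Pearson correlation between 0.943 and 0.951, as a description of 10283 genes that are not independent. S9CC47_R5 had the higher share in 71.0% of genes when set against S9CC13_R6. Spread between libraries depended on depth. The median SD of the share was 6.72 percentage points for genes with 50 to 100 reads and 0.751 for genes with at least 5000, where counting error alone would give 5.16 and 0.369.

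For each gene, T>C reads were tested against unconverted reads (total minus T>C) with the library as a block. The log2 ratio given below is the log2 of T>C over unconverted reads of a gene, set to 0 at a share of 25.9% in S9CC13_R6, 28.4% in S9CC47_R5 and 26.9% in S9CC47_R6, where TMM normalization put the bulk of the genes. Genes above that point at an adjusted p under 0.05 are called rich in T>C reads and genes below it poor. By edgeR's quasi-likelihood test, 4166 genes were rich, or 40.5% of those tested, and 4281 were poor, or 41.6%. Of these, 2227 (21.7%) were rich by at least 2-fold and 2272 (22.1%) were poor by at least 2-fold. The zero point sets the split. With library totals in place of TMM factors, the median log2 ratio of all genes moved from -0.01 to 0.64, and 71.9% of the called genes were rich in place of 49.3%. All ratios below are relative to the TMM zero point. The p-values and SEs of this test come from 3 cultures, with a variance that edgeR pools over genes (prior degrees of freedom 73.9). They rest mostly on that pooled variance and little on the spread of the single gene between cultures.

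Immediate-early genes, which cells switch on within minutes of a stimulus, had the highest median share of the 31 classes. Of 35 listed, 17 had enough reads, 16 of these were rich against 40.5% of all genes tested, and none was poor. Their median share was 61.5%, compared with 26.9% over all genes. IER5, an early response gene, had shares of 72.9%, 78.3% and 76.2%. IER2, a related gene and the most abundant of the class at 278 CPM, had 49.7%, 53.8% and 53.9%. Both lay far above the zero point in every library, with log2 ratios of 3.08 ± 0.12 and 1.57 ± 0.06 (SE). MCL1, an inhibitor of cell death whose mRNA and protein are both short-lived, had a mean share of 61.6% ± 4.06 (SD, n = 3), and ZFP36L2, which binds AU-rich elements and brings about decay, had 67.8% ± 4.55. EGR1 and JUN, at 6.50 and 9.11 CPM, had 61.5% ± 5.09 and 57.9% ± 4.34. JUND, a Jun family member, was the one tested gene of the class that was not called, with shares of 23.5%, 33.6% and 31.5% (log2 ratio 0.17 ± 0.11, adjusted p = 0.15). Without S9CC13_R6 its ratio was 0.36 and passed the threshold (adjusted p = 0.00967), as did its ratio of 0.29 at a minimum of 200 reads (adjusted p = 0.014).

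Several of the transcripts carry the AU-rich heptamer TATTTAT in the 3′ UTR. It was found in 82.4% of the 17 tested immediate-early genes and in 37.5% of the 10214 tested genes with an annotated 3′ UTR. The match nearest the transcript end is printed for genes of the classes with high shares and for JUND, with 10 bases on each side and the heptamer in capitals. Sequences are 5′ to 3′ on the strand of the gene, from the GENCODE transcripts on hg38.
IER5 (chr1:181092452-181092478, plus strand): tttatttattTATTTATttaattataa
BTG1 (chr12:92140771-92140797, minus strand): atagatttctTATTTATctgaaggtat
SOCS3 (chr17:78356827-78356853, minus strand): cacatatttaTATTTATattcagaaaa
SPRED1 (chr15:38356663-38356689, plus strand): aataatgttaTATTTATtggtttggta
SOX9 (chr17:72125659-72125685, plus strand): agttttttttTATTTATctctttaatc
SOX4 (chr6:21597403-21597429, plus strand): tatgtggacgTATTTATactggccaaa
JUND (chr19:18279999-18280025, minus strand): gattctgcccTATTTATgtttctactc
In IER5 the heptamer lies in a longer run of ATTT repeats. The mean shares of these genes ran from 29.5% for JUND and 37.8% for SOX4 to 77.1% for SOCS3, so genes with a match spanned a wide range. IER2 and ID3, both rich, have no match in their annotated 3′ UTR.

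Inhibitors that pathways induce against themselves were also mostly rich. Of 45 listed feedback inhibitors, 32 were tested, with a median share of 56.4%. Of these, 30 were rich and 1 was poor, against 40.5% and 41.6% of all genes tested. DUSP6, a phosphatase that switches off ERK and is used as a readout of FGF signalling, had shares of 64.7%, 68.0% and 65.1%. SPRED1, which restrains Ras signalling, had 57.9%, 66.5% and 62.6%. SOCS3, an inhibitor of cytokine receptors at only 7.12 CPM, had 75.4%, 79.4% and 76.6%. The 3 libraries of each gene lay within 10 percentage points of each other and well above the median of all genes. AXIN2, a target and brake of Wnt signalling, had a mean share of 46.5% ± 2.34, and SMAD6, an inhibitor of BMP signalling, had 44.5% ± 6.21. NKD2, another Wnt inhibitor, was the single poor member at 15.2% ± 4.87, with 16.8% T in the last 250 bases of its transcript. In the fit with an offset for T content its log2 ratio turned from -1.07 to 0.36 and was not called. HHIP was not called at 35.9%. DUSP6 has no AU-rich heptamer but has 2 matches to the Pumilio element TGTANATA, where N is any base, and BTG1 has 4. FOXM1, poor at a mean share of 11.2%, also has a match, as has SOX4 at 37.8%. For DUSP6 and BTG1 the match nearest the end is shown with the element in capitals.
DUSP6 (chr12:89348422-89348449, minus strand): gccttaccttTGTAAATAtttttgcttg
BTG1 (chr12:92140552-92140579, minus strand): tatatgggacTGTAAATAgagaaatctg

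ID, HES and HEY proteins are regulators that follow BMP and Notch signals. Of the 13 listed, 9 were tested and 7 were rich, against 40.5% of all genes tested, with a median share of 58.2%. ID3, the highest gene of the class by share, had 75.03%, 80.7% and 76.7%. ID2 and ID1, its relatives that also block basic helix-loop-helix factors, had 59.96% ± 6.06 and 65.8% ± 2.28. The levels of the 3 ID genes varied between cultures. ID3 had 91.7, 176 and 78.7 CPM, ID1 had 24.4, 52.3 and 21.6 CPM and ID2 had 56.2, 75.4 and 38.3 CPM in S9CC13_R6, S9CC47_R5 and S9CC47_R6. S9CC47_R5, the 1 culture of batch R5, was the highest for all 3 genes. HES6, which acts in neural differentiation, was poor at 20.8% ± 4.49 (log2 ratio -0.49 ± 0.13). It was not called in the fit with T content, at -0.11, or with library totals, at 0.16.

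Transcription factors of the cranial neural crest had high T>C shares. Of 35 with enough reads, out of 56 listed, 31 were rich and none was poor. Over all genes tested 40.5% were rich and 41.6% were poor. The median share of the factors was 47.9%. The median was 43.6%, 52.9% and 46.7% in S9CC13_R6, S9CC47_R5 and S9CC47_R6. SOX9, the factor that is tagged in these cells (chr17:72121020-72126416, plus strand), had shares of 58.0%, 62.7% and 57.8%. Its levels were 736, 775 and 783 CPM, and its log2 ratio was 1.99 ± 0.05 (adjusted p = 1.3e-51). The last 250 bases of the SOX9 transcript are rich in T at 45.6%, and in the fit with T content the ratio was 1.22. A gene on the other strand, SOX9-AS1, overlaps its last exon, and the strand used in counting is not given in the sources used here.

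Other crest factors differed among themselves. MSX1, a homeobox factor of the facial mesenchyme, had shares of 44.8%, 52.9% and 48.8%. ALX4, which patterns the upper face, had 49.2%, 55.7% and 51.0%. TFAP2A, a factor of early crest specification, had 49.0%, 54.3% and 49.5%. Its relative TFAP2B had 32.3%, 37.8% and 32.9%, lower than TFAP2A in every library. SNAI1, a driver of the epithelial to mesenchymal change, had the highest share of the list at 78.4% ± 2.84 and a low level that differed between cultures, with 4.78, 14.8 and 4.86 CPM. NR2F1, a nuclear receptor and the most abundant factor, had 34.2%, 40.3% and 36.6%, while its relative NR2F2 was not called at a mean of 28.2%. PRRX1, PRRX2 and DLX3 were the other 3 tested factors that were not called, at 26.0%, 26.6% and 31.0%. For TFAP2B the excess was lost in the fit with T content (log2 ratio 0.03 in place of 0.49, adjusted p = 0.61), and its last 250 bases hold 40.4% T. In that fit 30 of the 35 tested factors were rich and 1 was poor, NR2F2, with a log2 ratio of -0.46.

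By family, 19 of 23 tested SOX and FOX factors were rich and 4 were poor, against 40.5% and 41.6% of all genes tested. The median share of these factors was 44.7%. The poor ones were FOXM1, FOXP4, FOXO4 and SOX12. FOXM1, which drives mitotic genes, had shares of 10.5%, 12.2% and 11.1%. Its last 250 bases hold 20.8% T, and its log2 ratio was -1.55 before and -0.54 after the offset for T content. In that fit 18 SOX and FOX factors were rich and 2 were poor. Of 17 tested homeobox factors 11 were rich and 3 were poor. SIX4 stood at 73.8% ± 2.51 and MEIS3 at 6.50% ± 1.16, the 2 ends of that class, and PBX2, a partner of HOX and MEIS proteins, was poor at 10.1%. Zinc finger genes named ZNF, most of which code for DNA-binding repressors, formed the largest class. Of 375 tested, 325 were rich and 13 were poor, with a median share of 47.5%. ZNF17 was highest at 80.3% ± 1.87 and ZNF358 lowest at 7.68% ± 1.44. The median level of the ZNF genes was 12.98 CPM, compared with 30.4 CPM over all tested genes.

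**Figure D1:**
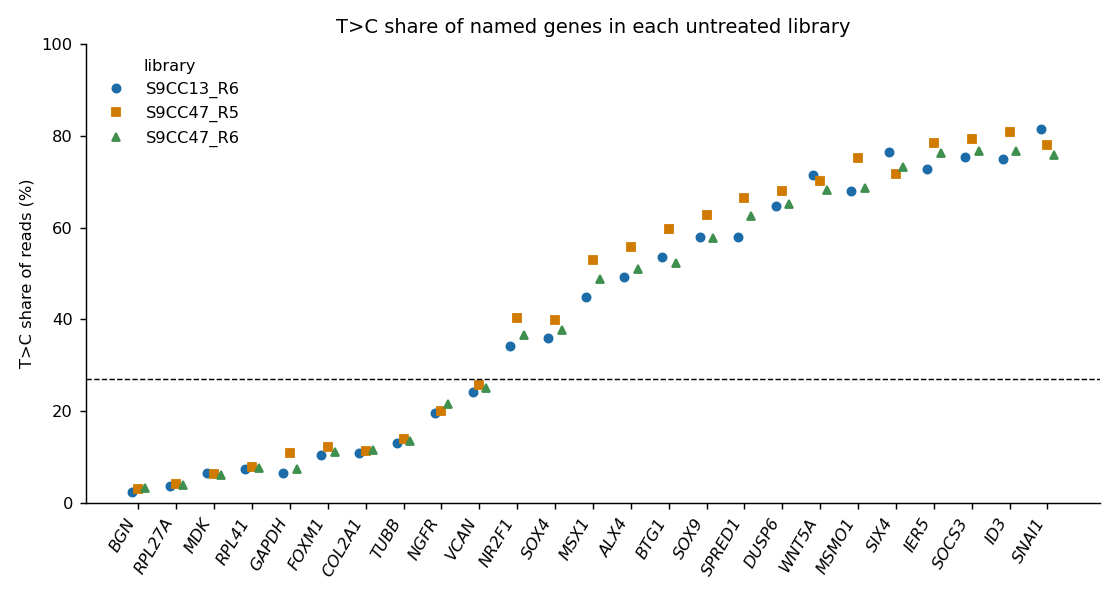
T>C share of reads (%) of 25 named genes in each of the 3 untreated libraries, ordered by mean share, with the dashed line at the median of all genes (26.9%). The 3 libraries of a gene sit close together, from BGN near 3% to SNAI1 near 78%, and S9CC47_R5 is the highest of the 3 for most genes above the line.

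Clock genes and targets of p53 were rich in most cases. Of 8 tested clock genes 6 were rich, against 40.5% of all genes tested, and none was poor. In the fit with T content 6 were rich and 1 was poor, PER3, with a log2 ratio of -0.69 (adjusted p = 0.0045). PER3 was also called poor without S9CC47_R5, at -0.64, and at a minimum of 1 read in any library, at -0.49. PER2, rich before, was not called in the fit with T content, at 0.21. CLOCK, the activator of the circadian loop, had a share of 56.8% ± 2.73, and the repressors CRY1 and CRY2 had 49.3% and 58.1%. Of 23 tested p53 targets, 18 were rich and 5 were poor, with a median share of 46.6%. CDKN1A, which arrests the cell cycle, had 63.2%, 60.8% and 64.2%, and MDM2, which degrades p53, had 47.8%, 58.0% and 48.0%. BAX, a promoter of cell death, was poor at 10.1% ± 1.41. The other poor targets were FDXR, DDB2, CCNG1 and XPC. AEN, a nuclease induced by p53, had shares of 89.2%, 90.3% and 89.2%, the highest of the class. A T-to-C base difference between the cells and hg38 would be read as a conversion in old and new RNA alike, and such differences were not examined for AEN or for any other gene.

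At the low end, genes of cytosolic ribosomal proteins were almost uniformly poor in T>C reads. Of 84 listed, 80 were tested, and 76 of these were poor against 41.6% of all genes tested. Their median share was 6.09%, with 5.76%, 6.42% and 5.97% in the 3 libraries. RPL41, the most abundant at 13823 CPM, had shares of 7.32%, 7.93% and 7.70%. RPL27A had 3.71%, 4.14% and 3.85%, and RPL35, which has 5 near-identical copies, had the lowest mean of the class at 3.01% ± 0.189. The libraries differed by less than 1 percentage point for each of these genes. Among the 4 rich members were RPS29, RPL38 and RPS13, with mean shares of 60.9%, 55.8% and 31.8%. RPS29 has 7 near-identical copies among annotated transcripts, with up to 3 T-to-C differences in its last 250 bases, and RPS13 has 3 copies with up to 2. RPL38 has no copy that passed the same limits, and its shares were 60.1%, 51.9% and 55.4%. Whether reads of copies entered these counts was not tested.

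Genes of the respiratory chain that lie in the nucleus were also mostly poor. Of 82 tested, 75 were poor and 5 were rich, against 41.6% and 40.5% of all genes tested. The median share of the class was 10.9%. ATP5MG and ATP5MC2, subunits of the membrane part of ATP synthase, had 8.09% ± 0.344 and 7.60% ± 0.128. NDUFA3 of complex I was lowest at 2.42% ± 0.789. The rich ones were ATP5F1C, COX6A1, ATP5MGL, NDUFS1 and UQCRFS1. ATP5F1C, the gamma subunit of ATP synthase, had shares of 92.3%, 92.1% and 90.5%, far above the class median in every library. In glycolysis 15 of 20 tested genes were poor, and the median share was 9.32%. ENO1 had 8.73%, 9.45% and 8.66%. GAPDH, whose last 250 bases hold only 15.2% T, had 6.59%, 11.0% and 7.44%, and its log2 ratio was -2.06 before and -0.46 after the offset for T content. The 4 rich genes were HK2, the first enzyme of the pathway in its regulated form, at 62.3%, the glucose transporters SLC2A1 and SLC2A3 at 52.7% and 45.8%, and the lactate transporter SLC16A1 at 40.9%. The enzymes after the first step and the transporters thus lay on opposite sides of the zero point, apart from PFKP, which was not called at 22.7%.

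Genes of structural and secreted proteins were mostly poor in T>C reads as well. Of 35 tested actin, tubulin and intermediate filament genes, 33 were poor and none was rich. Over all genes tested 41.6% were poor and 40.5% were rich. TUBB and TUBA1B, at 5984 and 5557 CPM among the 10 most abundant genes, had shares of 13.4% ± 0.47 and 10.8% ± 0.247. VIM, the vimentin gene of mesenchymal cells, had 9.84% ± 0.766. Of 23 tested collagen genes, 21 were poor and the median share was 11.3%. COL2A1, the collagen of cartilage and a target of SOX9, had 10.9%, 11.3% and 11.6% at 320 CPM, compared with 57.8% to 62.7% for SOX9 itself. The cartilage genes as a list were divided in this way. SOX5 and SOX6, partners of SOX9, were rich at 51.9% and 44.7%, and the cartilage collagens COL11A1 and COL9A1 were poor at 16.0% and 11.2%, while ACAN, the main cartilage proteoglycan, had only 0.39 CPM. COL6A1 was lowest at 4.14% ± 0.478, and COL13A1, a membrane collagen, was the single rich member at 34.7% ± 2.68. Of 32 tested matrix glycoprotein and proteoglycan genes, 27 were poor. BGN, a small matrix proteoglycan, had 2.41%, 3.08% and 3.31%, and VCAN, the large proteoglycan of early mesenchyme, had 24.3%, 25.6% and 24.99%. VCAN lay just under the zero point in every library (log2 ratio -0.16 ± 0.05, adjusted p = 0.0014), and it was not called without the block (adjusted p = 0.11), by limma (adjusted p = 0.15) or at a minimum of 200 reads (adjusted p = 0.40). With library totals its ratio was 0.50.

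The remaining housekeeping classes lay between. All 20 tested aminoacyl-tRNA synthetase genes were poor, against 41.6% of all genes tested, with a median share of 14.3%. Their last 250 bases hold a median of 26.8% T, compared with 32.0% over all genes. In the fit with T content, which leaves out genes with no matched transcript, 14 were poor and 0 were rich. Of 35 tested proteasome genes 26 were poor and 5 were rich, with PSMA4 at 48.9% ± 1.52 and PSMA7 at 9.33% ± 0.642. Genes of translation factors, chaperonins, splicing factors and mitochondrial ribosomal proteins had medians of 20.6%, 19.5%, 20.6% and 20.9%. These 4 medians lay under the zero point with TMM factors and above it with library totals, where their log2 ratios were 0.14, 0.04, 0.13 and 0.16. Replication-dependent histone genes had a median share of 16.1% and 14 of 20 were poor, but their last 250 bases hold a median of 16.0% T, and the median log2 ratio turned from -0.96 to 0.61 in the fit with T content. Most histone mRNAs of this kind end without poly(A), and reads here were primed at poly(A). HIST1H4C, the most abundant at 2003 CPM, had 14.4%, 15.7% and 13.8%.

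In several lists the rich and poor shares lay near those of all genes tested, 40.5% rich and 41.6% poor, while single members lay far apart. Of 23 tested genes of sterol synthesis 11 were rich and 9 were poor, or 47.8% and 39.1%. INSIG1, which holds back the activation of sterol synthesis when sterols are plentiful, had shares of 57.4%, 61.9% and 59.5%. MSMO1, an oxidase of the late steps, was highest at 70.6% ± 3.96. FDPS, a farnesyl diphosphate synthase, had 5.51%, 4.48% and 4.4999%. FDPS and MSMO1 thus differed by more than 60 percentage points in every library, and their last 250 bases held 19.6% and 42.8% T. In the fit with T content their log2 ratios were -1.73 and 2.09. In the list of ATF4 and endoplasmic reticulum stress genes, 13 of 25 were rich and 11 were poor. The stress factors DDIT3 and XBP1 and the cochaperone DNAJB9 had 51.6% ± 11.3, 53.4% ± 2.07 and 77.2% ± 4.25. The resident chaperones CALR and HSP90B1 had 12.7% ± 1.24 and 11.5% ± 0.921, and the serine and asparagine synthesis enzymes PHGDH and ASNS had 6.85% ± 0.873 and 8.69% ± 1.5.

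Genes of secreted signals and of their receptors included members far above and far below the zero point. Of 22 tested ligand genes, from 51 listed, 14 were rich and 6 were poor, or 63.6% and 27.3%. Over all genes tested 40.5% were rich and 41.6% were poor. The median log2 ratio of the ligand genes was 0.93, and it was 0.24 at a minimum of 200 reads. WNT5A, a ligand of limb and face outgrowth, had shares of 71.4%, 70.2% and 68.3%, and BMP4 had 39.9%, 45.8% and 42.1%. BMP2, whose protein was in the medium, had 69.1% ± 8.09 at 2.67 CPM. MDK and PTN, related heparin-binding growth factors, had 6.32% ± 0.173 and 5.74% ± 1.27, and IGF2 had 5.46% ± 1.9. MDK and PTN were also the most abundant of the tested ligands at 573 and 184 CPM. Of 34 tested receptor genes 20 were rich and 9 were poor, or 58.8% and 26.5%. TGFBR2, a TGF-beta receptor, was highest at 74.8% ± 4.6 and ERBB2 lowest at 10.7% ± 2.51. PDGFRA, the receptor of facial mesenchyme, had 48.5%, 57.4% and 49.8%, and NGFR, a surface marker of crest, had 19.7%, 20.0% and 21.5%. NGFR was poor with TMM factors at a log2 ratio of -0.53 ± 0.07, and its ratio was 0.12 with library totals and -0.07 in the fit with T content, where it was not called (adjusted p = 0.32).

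Before the offset for T content, cell cycle genes were spread round the zero point, as genes in general were. Of 51 tested genes of DNA replication and G1/S, 19 were rich and 22 were poor, and of 41 tested genes of mitosis and G2/M, 14 were rich and 16 were poor. These shares, 37.3% and 43.1% for replication and 34.1% and 39.0% for mitosis, were near the 40.5% and 41.6% of all genes tested. After the offset 17 replication genes were rich and 26 were poor, and 10 mitosis genes were rich and 22 were poor. That fit called 4275 of 10229 genes rich and 3910 poor. The median log2 ratio of the replication genes was -0.06 with TMM factors and 0.60 with library totals. TOP2A, a topoisomerase of dividing cells with 2242 CPM, had shares of 11.4%, 12.9% and 12.6%. CCNB1, the mitotic cyclin, was not called at 27.2% ± 1.76. CENPA, the histone of centromeres, and AURKA, a mitotic kinase, had 64.5% ± 7.06 and 53.9% ± 2.11. CDC25A, the phosphatase that opens S phase, was highest among the replication genes at 51.2% ± 3.38. Among 50 tested chromatin regulators 28 were rich and 13 were poor, with BCOR at 61.3% ± 8.47 and the remodellers CHD4 and SMARCA4 at 8.43% ± 0.428 and 10.2% ± 0.407. Of 35 tested genes that act in mRNA deadenylation, decapping and decay, 17 were rich and 12 were poor, and TOB1, which recruits the deadenylase, was highest at 62.7%. Of 31 tested lysosomal genes 22 were poor and 2 were rich, among them NPC1, a cholesterol exporter, at 48.8%.

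The genes listed as stem cell markers lay on both sides of the zero point. SALL4, a zinc finger factor, had shares of 63.6%, 69.4% and 65.9%. LIN28A, which blocks let-7 maturation, had 21.2%, 20.8% and 21.0% and was poor, and its relative LIN28B had 35.8%, 38.6% and 38.2% and was rich. LIN28A lay below LIN28B in each library. L1TD1, an RNA-binding protein and the most abundant of the list, was not called at 26.4% ± 1.32. Among surface and matrix genes of crest and mesenchyme, 14 of 20 tested were poor and 4 were rich. Over all genes tested these shares were 41.6% and 40.5%. The poor genes of the list included NES and FN1 at 9.12% and 8.17%. The rich ones were the receptors PDGFRA, PDGFRB and EDNRA and the cadherin CDH11.

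**Figure D2:**
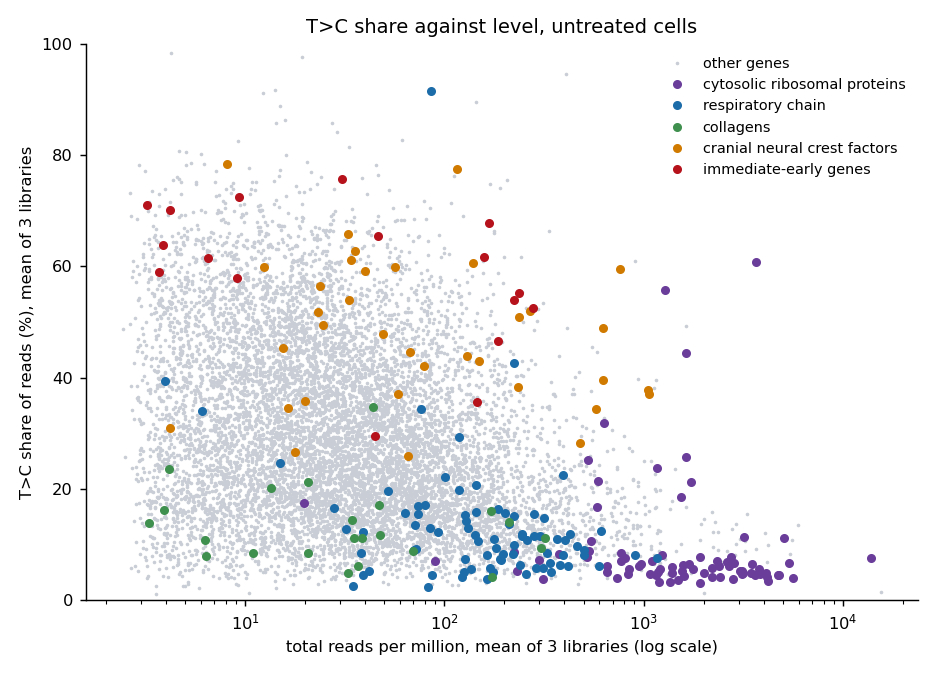
T>C share of reads (%, mean of the 3 libraries) against the level in CPM on a log scale, with 1 point per tested gene and 5 gene lists in colour. Ribosomal protein genes fill the lower right with 4 members above the zero point, crest factors and immediate-early genes lie above most genes of their level, and SOX9 is among the few genes over 500 CPM with a share above 50%.

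Abundant genes tended to have low shares. The median share was 32.9% in the quintile of genes with the lowest levels (2.45 to 10.2 CPM) and 17.7% in the quintile with the highest (at least 94.0 CPM). Across genes the Spearman correlation of share and level was -0.305, as a description. Total reads enter both the level and the denominator of the share. The 10 genes of highest level were MTRNR2L8, RPL41, TUBB, RPL27A, TUBA1B, GAPDH, RPS23, RPS27A, RPS6 and RPS4X, which had mean shares from 1.39% to 13.4%.

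T>C reads and unconverted reads were therefore spread differently over the genes. These are raw reads with no offset for T content, and unconverted reads can include new RNA that took up no label. Ribosomal protein genes held 19.1% ± 0.641 of the unconverted reads and 7.61% ± 0.326 of the T>C reads (mean and SD, n = 3). Crest factors held 0.503% ± 0.028 of the unconverted reads and 1.63% ± 0.0588 of the T>C reads, immediate-early genes 0.0894% and 0.444%, and ZNF genes 0.79% and 2.19%. The SDs, which give the spread between libraries only, were far smaller than each of these differences. Median T content at the transcript end was 26.2% for ribosomal protein genes and 33.2% for crest factors. How much of the differences in held reads came from T content was not tested. In the fit with T content the median log2 ratio of ribosomal protein genes was -2.03 (-2.52 before). It was 1.24 for crest factors (1.30 before), 1.89 for immediate-early genes (2.11) and 1.41 for ZNF genes (1.26). By rank, SOX9 was the 13th gene among T>C reads with 2374 CPM of T>C reads and the 410th among unconverted reads with 383 CPM of unconverted reads. MSX1 was the 33rd and the 395th, and BGN, at the other end, was the 3522nd and the 262nd. Of the 10 leading genes of each kind of read, 4 were shared, RPL41, TUBB, TUBA1B and RPS27A. Those leading the T>C reads included KPNB1, a nuclear import receptor with a share of 49.3% ± 1.69, and MTDH with 61.0% ± 0.965, together with RPS29 and RPL38. The 100 leading genes held between 16.46% and 16.97% of the T>C reads of a library and between 30.6% and 32.5% of its unconverted reads.

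**Figure D3:**
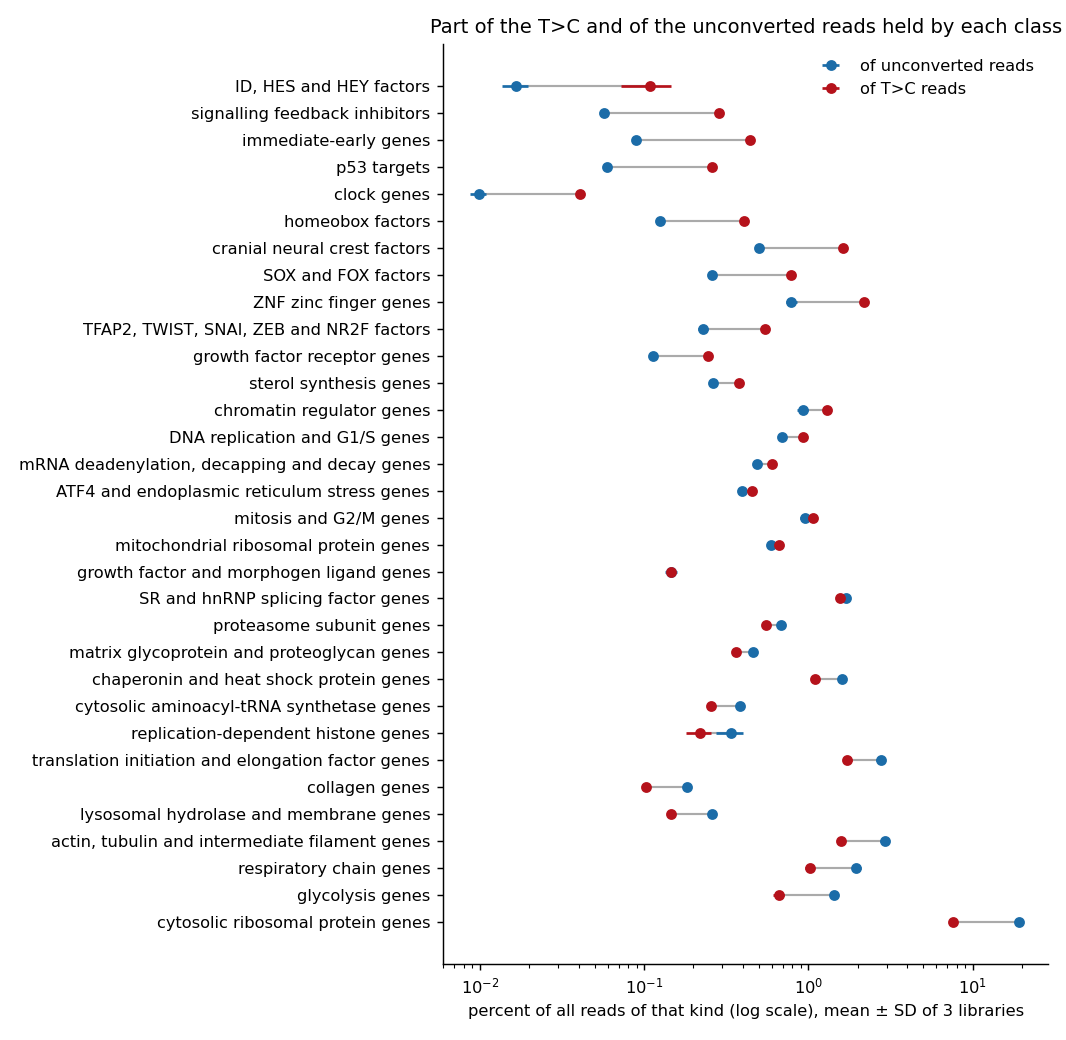
Percent of all unconverted reads (blue) and of all T>C reads (red) held by each gene class, on a log scale, as the mean and SD of the 3 libraries. Classes are ordered by the ratio of the 2 values, from ribosomal protein genes, which held 19.1% of unconverted and 7.61% of T>C reads, to ID, HES and HEY factors, which held 0.0167% and 0.109%.

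Shares were then set against properties of the annotated 3′ end of the canonical transcript of each gene. Whether the reads came from that end was not tested. The share was higher where the last 250 bases held more T, the base that converts, from a median of 16.7% in the lowest quintile of genes (7.2% to 25.2% T) to 35.4% in the highest (38.0% to 52.0% T). The fit with a T-content offset flattened this by its construction. It called 4275 genes rich and 3910 poor, of which 3598 and 3453 had the same call before, and 259 genes were called in opposite directions by the 2 fits. Genes with 1 exon had a median share of 41.0%, those with 2 or 3 exons 37.7%, those with 4 to 9 exons 26.9% and those with at least 10 exons 25.3%. T content hardly differed between these groups, whose medians lay between 31.6% and 32.8%. The median share was 17.1% in the quintile of genes with the shortest 3′ UTRs and 32.9% in the quintile with the longest. The lowest quintile in T content also had short 3′ UTRs, with a median of 609 bases against 2150 in the highest.

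The median share was higher in genes with more AU-rich heptamers (TATTTAT, read on the RNA strand, overlapping matches counted), from 22.4% in 6383 genes with none to 31.1%, 37.0% and 37.9% in genes with 1, 2 and at least 3. For the Pumilio element (TGTANATA) the medians were 23.4%, 32.0%, 35.5% and 39.0%. A heptamer of the same letters in another order, TTTTAAT, gave 22.5%, 29.9%, 32.7% and 35.98%, which is a similar range. The rearranged heptamer was found in 42.2% of 3′ UTRs, the Pumilio element in 32.3% and the AU-rich heptamer in 37.5%. Long and T-rich 3′ UTRs hold more of all 3 motifs.

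Within quintiles of 3′ UTR length and after the offset for T content the motifs differed. In the shortest quintile, 170 genes with an AU-rich heptamer had a median log2 ratio of 0.12 and 1876 genes without one had -0.50. In the longest quintile the medians were 0.35 and 0.08. With minus without, the difference of the medians was 0.62, 0.39, 0.40, 0.28 and 0.27 from the shortest quintile to the longest for the AU-rich heptamer, and 0.66, 0.42, 0.35, 0.21 and 0.13 for the Pumilio element. For the rearranged heptamer it was 0.17, -0.03, 0.04, -0.08 and 0.18. These are descriptions over genes with no test, and a match is a string of letters and not a shown binding site.

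**Figure D4:**
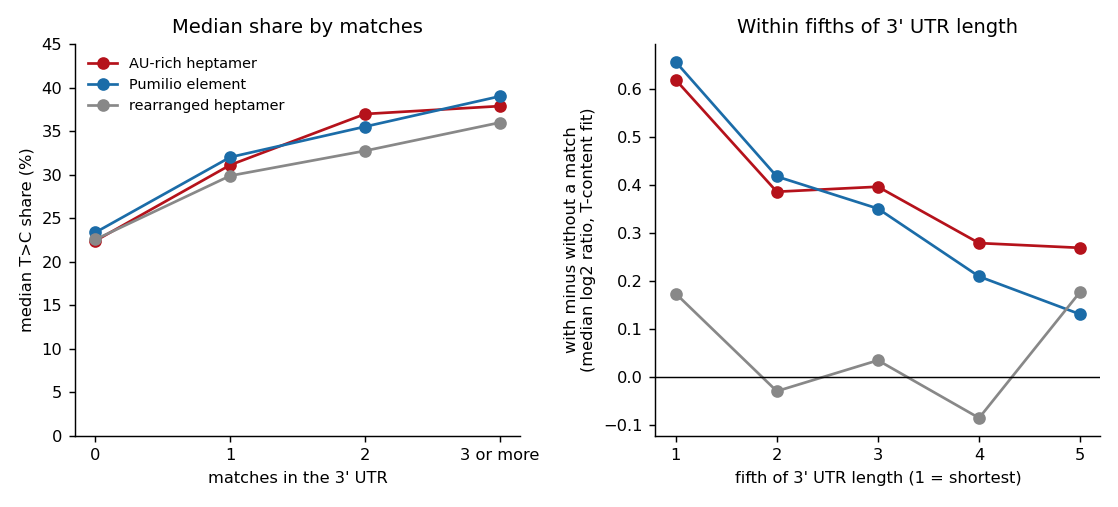
Left, median T>C share (%) of genes by the number of matches to 3 motifs in the 3′ UTR. Right, median log2 ratio of genes with a match minus that of genes without one, in the fit with an offset for T content, within quintiles of 3′ UTR length; the AU-rich heptamer lies between 0.27 and 0.62, the Pumilio element between 0.13 and 0.66 and the rearranged heptamer between -0.08 and 0.18.

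The most extreme genes were taken among those with a mean of at least 500 reads and the same direction in all 3 libraries. The highest log2 ratios belonged to NACA2, ATP5F1C, AEN, RUNDC1, ZBED6, EDARADD, TBC1D20, ARRDC3, ID3 and DEPDC1. NACA2 had shares of 94.4%, 95.1% and 94.4%; it is an intronless gene near-identical to NACA, a chaperone of nascent proteins, with 1 T-to-C difference from its copies in the last 250 bases. ZBED6 also has near-identical copies with up to 2 such differences. ARRDC3, an arrestin-like regulator of receptors and of glucose uptake, had 74.0%, 84.3% and 76.2%, with no copy and 46.0% T in its last 250 bases. EDARADD, the adaptor of the EDA receptor, had 82.8%, 82.0% and 83.4% with only 17.6% T. The lowest ratios belonged to MTRNR2L1, MTRNR2L8, NDUFA3, ATP5F1D, HIST1H1E, PRDX2, BLVRB, BGN, ADAM15 and COPE. Of these, NDUFA3 had 25.2% T in its last 250 bases, and the others with a matched transcript had between 8.0% and 20.0%, under the median of 32.0% over all genes. PRDX2, a peroxide-removing enzyme, had 3.05%, 2.27% and 2.81%. In the fit with T content the 8 matched genes kept negative ratios, from -1.32 for HIST1H1E to -3.40 for NDUFA3.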

How the data were processed

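SLAM-seq libraries of 3 untreated CNCC cultures were analysed. According to the authors' methods, read 1 of QuantSeq 3′ end libraries was trimmed and was mapped to hg38 and counted with slamdunk, whose regions, strand setting and base-difference filter are not given in the sources used here. What the authors deposited are 2 tables with 1 row per gene symbol, of total and of T>C read counts, not normalized and with no stated molecular identifiers, so counting intervals cover counting error only.

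Unconverted reads were total minus T>C reads. T>C and unconverted counts of genes with at least 50 total reads in each library were fitted with edgeR 4.0.16 (R 4.3.3; TMM, quasi-likelihood test, library as block), with Benjamini-Hochberg adjustment over all 10283 genes. The replicate number marks the culture in both columns, since both counts come from the same library. The script was tested on simulated counts. Transcripts came from GENCODE release 44 on hg38. Of 18970 symbols, 18451 matched by name and 383 by a unique RefSeq synonym. T content, 3′ UTR lengths and motifs were taken from the Ensembl canonical transcript of each gene, T content from its last 250 bases. Near-identical copies were found with BLAST 2.17.0 (at least 100 bases at 90% identity). Levels are CPM.

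The genes named were SOX9, the 10 highest and 10 lowest log2 ratios, the 10 highest levels, the 2 most abundant and the highest and lowest members of each class, and marker genes. Other members were named after their values were seen. The classes, which overlap, and the question itself were chosen with earlier results of these data known. Alternatives were DESeq2 1.42.0, limma 3.58.1, other scaling, minimums of 20, 200 or 1 read, protein-coding genes, no block, a T-content offset, other thresholds and each library left out. Leaving out genes with near-identical copies was added after the data were seen. No half-lives were computed.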

Additional observations from a re-analysis of the deposited data

How the results depend on the processing

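The counts of rich and poor genes, in all and past 2-fold, stayed within 1.5 times of the values given under every alternative except library totals in place of TMM factors. That setting gave 6150 rich and 2407 poor genes, with 4033 and 1010 past 2-fold, and 443 genes were called in opposite directions by it and by the TMM fit. By its construction that setting moves the zero point of all genes together. DESeq2 gave 4004 rich and 3992 poor genes and limma 4114 and 4132. Without the replicate block, which pairs the 2 kinds of read from 1 library, the counts were 3934 and 4016, with 2226 and 2270 past 2-fold. Leaving out 1 library in turn gave 3877 to 4067 rich and 3991 to 4140 poor genes, and 2188 to 2356 and 2212 to 2337 past 2-fold. Without genes that have a near-identical copy, an alternative chosen after seeing the data, 3956 were rich and 4088 poor.

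Some values changed sign. With library totals the log2 ratios of HES6, MCM7, AARS, HNRNPDL, LMNB1, VCAN, NGFR and CNOT7, below 0 with TMM factors and all but LMNB1 called poor there, were 0.16, 0.018, 0.13, 0.38, 0.61, 0.50, 0.12 and 0.38. The class medians were then 0.60 for DNA replication, 0.16 for mitochondrial ribosomal proteins, 0.035 for chaperonins, 0.14 for translation factors and 0.13 for splicing factors. With the T-content offset NKD2 and NR2F6, both poor before, turned to 0.36 and 0.35, and the medians were 0.61 for histones, -0.057 for sterol synthesis and -0.29 for mitosis. At a minimum of 200 reads the median was -0.77 for ATF4 and stress genes and 0.057 for DNA replication, and at a minimum of 1 read in any library it was -0.038 for mitosis. Without genes that have copies it was -0.013 for stress genes and -0.029 for sterol synthesis. With 1 library left out it ran from -0.016 to 0.071 for mitosis and from -0.084 to 0.0041 for DNA replication, which lay close to 0 throughout. The causes of these single changes were not tested. Of 1970 values of named genes under the alternatives, 1932 kept their direction and their side of the threshold.

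Depth limits the single gene. Genes with 50 to 100 reads had a median SD of 6.72 percentage points between libraries. No unlabelled library was analysed here, so the T>C background of each gene was not measured, and base differences between H9 and hg38, copies of a gene and strand were not examined read by read.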
